A study of Mus musculus with 10 samples.

Results

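The genes described here are Nfe2l2, which encodes the transcription factor NRF2, 7 genes widely known as its targets (Slc7a11, Gclm, Gclc, Srxn1, Txnrd1, Hmox1 and Nqo1) and the metallothionein genes Mt1 and Mt2. They were picked by symbol, and all 10 were found among the 24411 genes counted. RNA was sequenced from mouse microglia in 4 groups, all of them exposed for 4 h to 10 uM EPZ-6438, which blocks the histone methyltransferase EZH2. Primary microglia had this inhibitor alone (PM_EPZ, n = 3) or with lipopolysaccharide (LPS), a bacterial product sensed by Toll-like receptor 4, at 10 ng/ml (PM_EPZ_LPS, n = 3). BV2 cells, an immortalised mouse microglial line, had it alone (BV2_EPZ, n = 2) or with the same LPS dose (BV2_EPZ_LPS, n = 2). The primary cells were shaken off mixed glial cultures grown from the pooled brains of 12 ICR pups aged 3 days, and more than 92% carried CD11b by flow cytometry, per the labels' protocols. The study's stated purpose is to learn whether blocking EZH2 guards neonatal microglia against activation. No group lacks the inhibitor here, and no comparison below measures what it did. The labels do not say whether replicates were separate cultures, so a p-value speaks only to the variation among these libraries, which could be technical.

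NRF2 is held at a low level in resting cells by KEAP1, which hands it to a ubiquitin ligase. When electrophiles or oxidants modify KEAP1, NRF2 accumulates, pairs with a small MAF protein and binds antioxidant response elements, short DNA sites that the repressor BACH1 can also occupy. Its targets import cystine, make glutathione, reduce thioredoxin and peroxiredoxins, degrade heme and reduce quinones. Metallothioneins are small cysteine-rich proteins that bind zinc and copper. Their genes are classically switched on by the zinc-sensing factor MTF1 through metal response elements, and by glucocorticoids.

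RefSeq start sites with a promoter window were found for 8 of the 10 genes (10 windows, build GRCm38.p6, 250 bases before each start), and none for Hmox1 and Gclc. The antioxidant response element was searched as TGACNNNGC or TGAGNNNGC on both strands, letters that 23.0% of all 32851 windows of this length hold at least once and 3.18% hold at least 2 times. Matches were found upstream of Nfe2l2, Slc7a11, Gclm, Srxn1 (2 matches), Mt2 and 1 of the 3 Txnrd1 starts, and none in the Nqo1 and Mt1 windows. Some of these letters overlap those of an AP-1 site (TGAGTCA, in 4.46% of windows): the matches TGAGTCAGC of Srxn1 and TGACTCAGC of Mt2 contain it on one strand. The windows of 3 target genes whose responses to LPS differed between the cell types are printed 5′ to 3′ on the strand of the gene, with the matches in capitals. They lie at chr3:50443614-50443863 (minus strand) for Slc7a11, chr2:152105274-152105523 (plus) for Srxn1 and chr3:122245307-122245556 (plus) for Gclm.
Slc7a11: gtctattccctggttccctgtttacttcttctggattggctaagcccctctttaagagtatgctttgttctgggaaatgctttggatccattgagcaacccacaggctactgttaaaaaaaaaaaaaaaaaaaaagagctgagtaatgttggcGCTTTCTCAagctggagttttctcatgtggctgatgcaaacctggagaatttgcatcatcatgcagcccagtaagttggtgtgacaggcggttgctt
Srxn1: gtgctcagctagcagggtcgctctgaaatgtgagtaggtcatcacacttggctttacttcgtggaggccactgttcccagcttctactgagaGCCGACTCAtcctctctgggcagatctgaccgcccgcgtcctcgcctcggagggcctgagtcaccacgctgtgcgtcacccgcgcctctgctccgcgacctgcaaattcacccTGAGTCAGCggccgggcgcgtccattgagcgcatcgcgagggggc
Gclm: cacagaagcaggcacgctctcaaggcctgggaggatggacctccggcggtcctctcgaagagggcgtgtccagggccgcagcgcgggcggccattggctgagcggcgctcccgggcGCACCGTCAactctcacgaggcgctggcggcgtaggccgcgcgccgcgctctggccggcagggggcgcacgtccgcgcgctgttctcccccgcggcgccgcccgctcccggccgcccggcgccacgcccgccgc
The Slc7a11 match lies 97 to 89 bases before the start its window used. That window lies at the GENCODE start (50443614), inside the span that RefSeq gives the gene (to 50499087). The Srxn1 matches lie 158 to 150 and 45 to 37 bases before its start, and the Gclm match 134 to 126. The Gclm window ends next to the GENCODE start (122245557), past the outer RefSeq start (122245487). A match describes letters only and is not a measured binding site.

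Mt2 and Mt1 are neighbours on chromosome 8, 5513 bases apart on the plus strand in GENCODE (5315 in RefSeq), and their levels differed in pattern across the groups, so both windows are printed with metal response elements in capitals. These were searched as TGCACNC or TGCGCNC on both strands, letters found at least once in 21.4% of windows and at least 3 times in 1.26%. The windows lie at chr8:94172368-94172617 for Mt2 and chr8:94178839-94179088 for Mt1.
Mt2: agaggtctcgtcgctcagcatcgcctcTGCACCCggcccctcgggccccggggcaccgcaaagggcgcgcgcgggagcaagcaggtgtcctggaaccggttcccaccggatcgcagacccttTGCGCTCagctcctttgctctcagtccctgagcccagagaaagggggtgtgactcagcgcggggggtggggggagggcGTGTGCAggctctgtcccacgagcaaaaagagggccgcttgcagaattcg
Mt1: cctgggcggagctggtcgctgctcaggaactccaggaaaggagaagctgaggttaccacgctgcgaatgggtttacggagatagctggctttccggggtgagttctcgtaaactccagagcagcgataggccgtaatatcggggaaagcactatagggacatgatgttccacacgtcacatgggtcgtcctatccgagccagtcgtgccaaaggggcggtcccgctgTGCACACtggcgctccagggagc
The Mt2 window held 3 matches and the Mt1 window 1, which lies 23 to 17 bases before the start its window used. The Mt1 window ends past the outer RefSeq start (94178883) and also past the GENCODE start (94179082). Part of it thus lies inside the gene, and bases farther upstream were not searched. The numbers of matches therefore do not compare the promoters of Mt1 and Mt2. Outside the metallothioneins, Gclm held 2 matches to these letters and Srxn1 1.

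Libraries held 2750988 to 3684012 gene counts, and levels are given as CPM, each count scaled to a common library size with TMM factors. Group levels are means ± SD over libraries, and log2 fold changes are ± SE. A gene at 0 in a library could have had up to 3 counts, or 0.843 to 1.22 CPM, with counting error alone considered. The share of gene counts taken by the ribosomal RNA precursor Rn45s varied among the primary libraries. It was 40.9% to 51.7% in the 3 libraries without LPS, but 15.7% and 16.0% in LPS replicates 2 and 3. PM_EPZ_LPS replicate 1 stood apart from these at 43.7%, within the range of the untreated libraries. The calls of the 10 genes with LPS in primary microglia are therefore also given without this library. Values of the pathway and marker genes include it. In BV2 libraries the share was 27.0% to 30.1%. All 10 microglial marker genes examined had reads in every group, with a summed level of 1679 to 1907 CPM in primary and 1145 to 1299 CPM in BV2 libraries. Tnf, an LPS-induced cytokine gene that checks the treatment, averaged 4.84 ± 1.03 CPM in untreated and 3149.8 ± 173 CPM in LPS-treated primary microglia, against 31.2 ± 8.23 and 667 ± 55.4 CPM in BV2 cells. Astrocyte markers were present in the primary libraries, with a summed level over 13 genes of 1033 to 1697 CPM without LPS and 1037 to 1747 CPM with LPS. In BV2 libraries 11 of the 13 were at 0 without LPS and 12 with LPS, including Gfap, Aqp4 and Slc1a3.

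**Figure D1:**
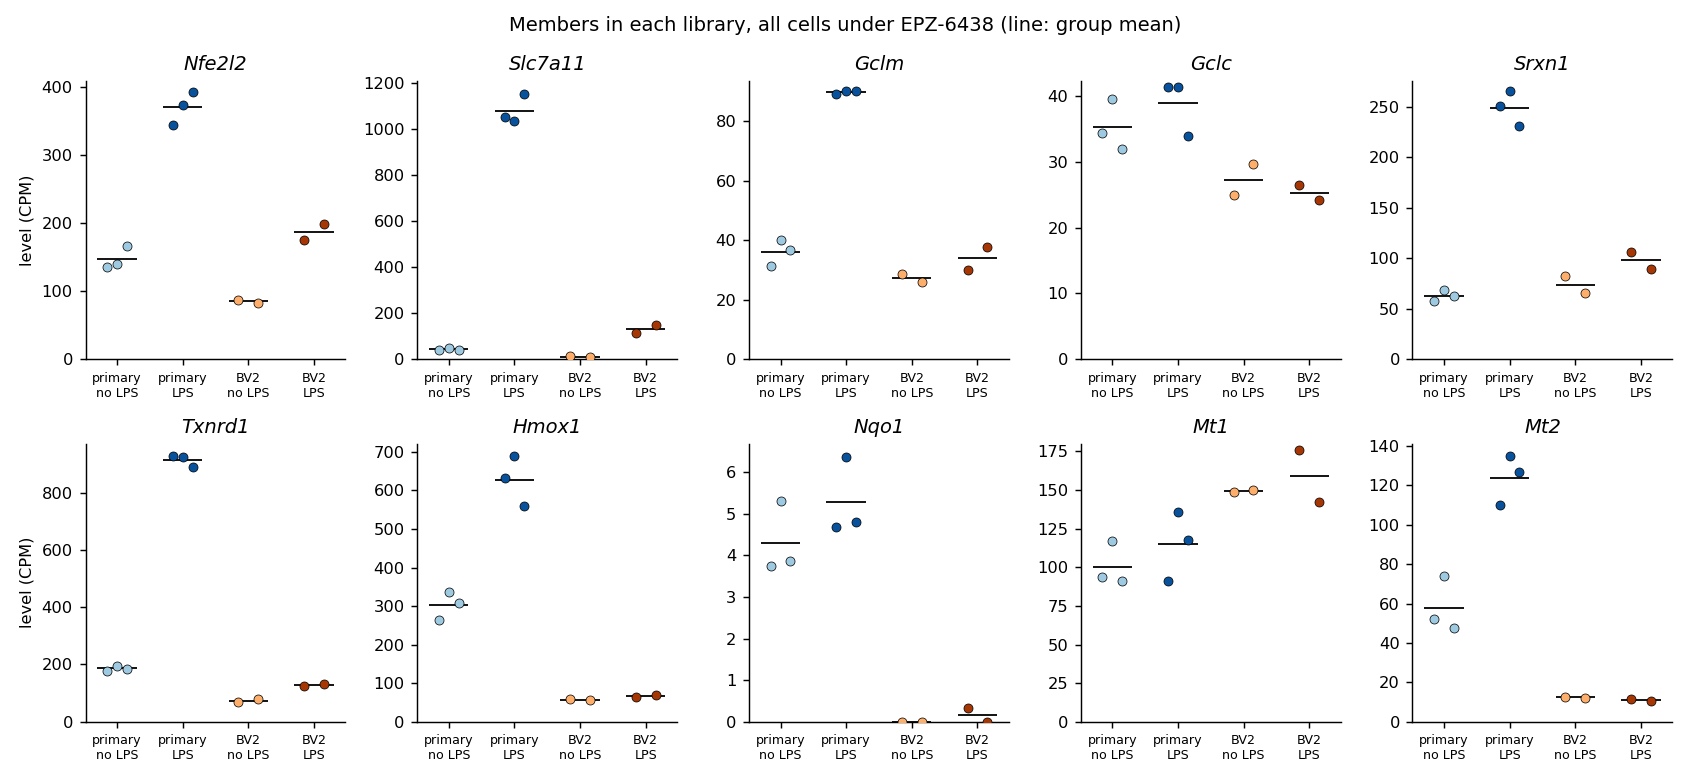
Level of each of the 10 genes in CPM (linear axes from 0) in every library of the 4 groups, all under EPZ-6438, with a line at the group mean. With LPS the primary libraries of Slc7a11 sit at 1034 to 1153 CPM, against 37.7 to 47.8 without it, while the primary libraries of Gclc, Nqo1 and Mt1 overlap between the groups.

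The first comparison was of LPS against no LPS in primary microglia under the inhibitor. Of the 10 genes, 7 rose and 0 fell, where 39.2% of all 10664 tested genes were called, 21.4% as risen and 17.8% as fallen (edgeR quasi-likelihood test, Benjamini-Hochberg adjusted p under 0.05). The median log2 fold change of the 10 was 1.20, beside -0.03 over all genes tested. Slc7a11, Txnrd1, Srxn1, Nfe2l2, Gclm, Mt2 and Hmox1 rose, whereas Nqo1, Gclc and Mt1 were not called. For the 7 the LPS libraries lay wholly above the others, as they did for 26.6% of all genes (49% were separated in either direction), and for the other 3 the groups overlapped. Without PM_EPZ_LPS replicate 1 the same 7 kept their calls and Mt1 was called as well, at a log2 fold change of 0.33 ± 0.12 (adjusted p = 0.0169). In bulk RNA, fewer cells of a type and less RNA per cell cannot be told apart. The Rn45s share differed among these libraries as given above. The same 7 genes were called with Rn45s left out of the counts, a step that cannot show what else differed between the libraries. Summed astrocyte markers overlapped between the groups, a sum of which Gfap alone made up 699.8 ± 231 CPM without LPS and 722 ± 289 CPM with LPS. Of 12 astrocyte markers tested, 1 rose (Aqp4, 0.93 ± 0.17, adjusted p = 8.46e-04) and 3 fell, Sox9 (-1.90 ± 0.40, adjusted p = 0.00674), Fgfr3 (-0.97 ± 0.19, adjusted p = 4.74e-04) and Gja1 (-0.50 ± 0.15, adjusted p = 0.0139). Of 9 microglial markers tested, 1 rose (Spi1, 1.50 ± 0.13, adjusted p = 2.28e-08) and 3 fell, P2ry12 (-1.45 ± 0.39, adjusted p = 0.00600), Csf1r (-1.40 ± 0.33, adjusted p = 0.0213) and Trem2 (-0.36 ± 0.12, adjusted p = 0.0199). The part of the Rn45s share and of these markers in the results was not tested.

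Nfe2l2, the regulator itself (chromosome 2, 75675513 to 75704641, minus strand, GRCm38), stood at 135, 139.6 and 167 CPM in the primary libraries without LPS and at 345, 374 and 394 CPM with LPS. All LPS libraries were above the highest untreated one. The log2 fold change was 1.32 ± 0.12 (2.5-fold, adjusted p = 2.38e-08).

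Glutathione synthesis depends on the import of cystine, for which Slc7a11 encodes the transport subunit of the cystine/glutamate exchanger. Slc7a11 (chromosome 3, 49892526 to 50443614, minus strand) stood at 37.7, 47.8 and 40.7 CPM without LPS and at 1053, 1034 and 1153 CPM with LPS. It rose 25.5-fold (log2 fold change 4.67 ± 0.13, adjusted p = 8.33e-16), the largest change of the 10 genes and number 169 from the top among all genes tested. RefSeq places the gene at 50364936 to 50499087, and which model the counts used was not given. GENCODE lists an antisense gene (Gm37854) and 2 pseudogenes (Gm37826 and Gm2345) within it on the opposite strand, none of them in the count files. On the same strand it lists a pseudogene (Gm37692) and a further gene (Gm37498), also absent from them. Whether reads of these entered the counts of Slc7a11 was not tested. Reads on the opposite strand numbered 21, 15 and 24 without LPS and 52, 106 and 61 with LPS. They made up a mean of 15.2% of its stranded reads without LPS and 2.18% with LPS. With strands pooled, its level without LPS was 49.2 CPM in place of 42.1 CPM.

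Glutamate-cysteine ligase, the rate-limiting enzyme of glutathione synthesis, is made of a catalytic subunit (Gclc) and a modifier subunit (Gclm). Gclm (chromosome 3, 122245557 to 122270732, plus strand) was at 31.4, 40.0 and 36.9 CPM without LPS and 89.1, 90.4 and 90.2 CPM with LPS, and rose by 1.31 ± 0.13 (log2, adjusted p = 1.82e-07). Gclc (chromosome 9, 77754535 to 77794485, plus strand) stood at 34.4, 39.6 and 31.9 CPM without LPS and 41.4, 41.4 and 33.9 CPM with LPS. Its log2 fold change was 0.13 ± 0.15 (adjusted p = 0.551), and its groups overlapped. The ratio of Gclm to Gclc reads within a library was 0.913 to 1.15 without LPS and 2.15 to 2.66 with LPS, so reads of the modifier subunit outnumbered those of the catalytic one in every LPS library. This ratio, like the other ratios given here, was not scaled by transcript length, was chosen after the levels were seen and carries no test. The transcripts have 5589 bases (Gclm) and 3423 bases (Gclc). Divided by these lengths, the means were 6.46 and 10.3 CPM per kb without LPS and 16.1 and 11.4 with LPS.

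Thioredoxin reductase 1 (Txnrd1) restores thioredoxin with electrons from NADPH, and sulfiredoxin 1 (Srxn1) repairs overoxidised peroxiredoxins. Txnrd1 (chromosome 10, 82833951 to 82897712, plus strand) stood at 179, 195 and 185 CPM without LPS and 928, 924 and 889 CPM with LPS. It rose 4.87-fold (log2 fold change 2.28 ± 0.11, adjusted p = 1.44e-12). Eid3 overlaps it on the same strand and is counted as a gene of its own. Srxn1 (chromosome 2, 152105516 to 152111376, plus strand) stood at 57.9, 68.2 and 62.1 CPM without LPS and 250.4, 265 and 231 CPM with LPS. It rose 3.93-fold (1.98 ± 0.12, adjusted p = 9.94e-11). In both genes the lowest LPS library was far above the highest untreated library.

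Heme oxygenase 1 (Hmox1) splits heme into biliverdin, carbon monoxide and iron, and Nqo1 reduces quinones. Hmox1 (chromosome 8, 75093621 to 75100589, plus strand) stood at 264, 336 and 307 CPM without LPS and 631, 689.6 and 560.4 CPM with LPS. It rose 2.06-fold (1.04 ± 0.12, adjusted p = 7.94e-07). Nqo1 (chromosome 8, 107388225 to 107403206, minus strand) had the fewest reads of the 10 genes in these cells, 10, 13 and 11 without LPS and 12, 20 and 17 with LPS. Its log2 fold change was 0.30 ± 0.33 (adjusted p = 0.512), and its groups overlapped.

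The metallothionein genes gave unlike values. Mt2 (chromosome 8, 94172664 to 94173568, plus strand) stood at 52.3, 73.9 and 47.4 CPM without LPS and 110.2, 135 and 127 CPM with LPS, and rose by 1.09 ± 0.15 (log2, adjusted p = 1.51e-05). Mt1 (chromosome 8, 94179082 to 94180327, plus strand) stood at 93.4, 117 and 90.9 CPM without LPS and 91.4, 136 and 118 CPM with LPS. Its log2 fold change was 0.19 ± 0.15 (adjusted p = 0.334), and the lowest LPS library, replicate 1, lay among the untreated ones. The ratio of Mt2 to Mt1 reads was 0.521 to 0.633 in the libraries without LPS and 0.995 to 1.21 with LPS. The brain-enriched metallothionein gene Mt3 was at 29.5 ± 3.44 and 27.6 ± 9.63 CPM (adjusted p = 0.770), and Mt4 had 0 reads in every library. GENCODE places an antisense gene, Gm45774, at Mt2, which the count files do not list, and RefSeq starts Mt1 at 94178883.

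**Figure D2:**
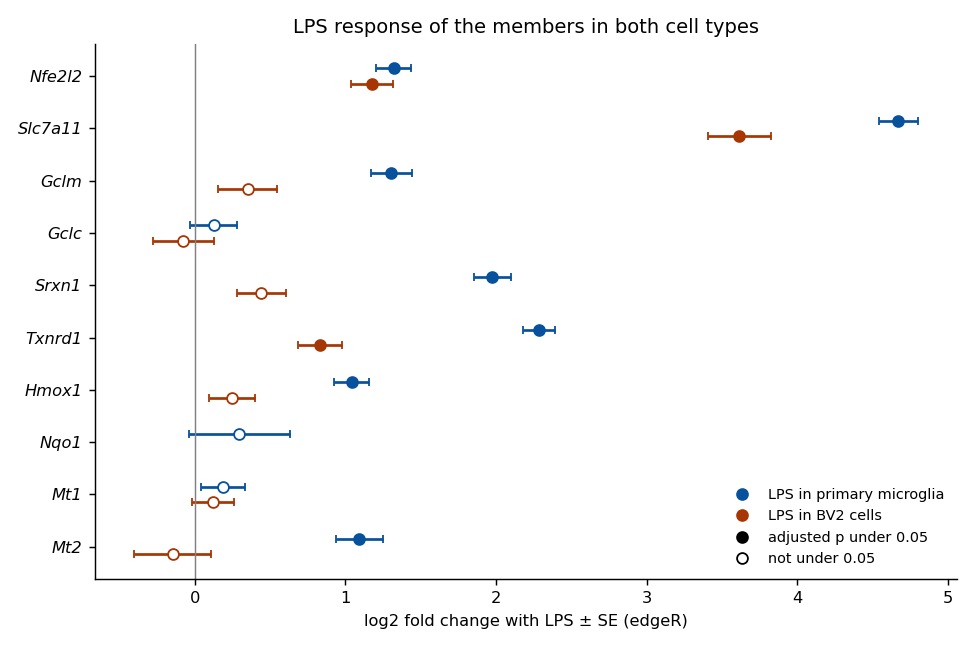
Log2 fold change with LPS ± SE (edgeR) of each gene in primary microglia (n = 3 per group) and BV2 cells (n = 2 per group), filled where the adjusted p is under 0.05. Slc7a11 lies farthest to the right in both cell types (4.67 and 3.62), and the bars of Nfe2l2 overlap (1.32 ± 0.12 and 1.18 ± 0.14), whereas those of Srxn1 and Txnrd1 are far apart.

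In BV2 cells 3 of the 9 genes tested rose with LPS and 0 fell, where 5.2% of all 9321 tested genes were called, 3.69% as risen and 1.51% as fallen. The median log2 fold change of the 9 was 0.35, beside -0.01 over all genes. The 3 that rose were Slc7a11, Nfe2l2 and Txnrd1. The LPS libraries were wholly above the others for 6 of the 9 genes and below them for 1 (Mt2), while 17.1% of all genes lay above and 42.1% were separated in either direction.

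Slc7a11 stood at 11.2 and 10.5 CPM without LPS and 113 and 148 CPM with LPS, and rose 12.3-fold (log2 fold change 3.62 ± 0.21, adjusted p = 3.31e-07), number 32 from the top of 9321. Its opposite-strand reads numbered 0 and 0 without LPS and 2 and 0 with LPS. Nfe2l2 stood at 87.1 and 82.7 CPM without LPS and 176 and 199 CPM with LPS, and rose 2.26-fold (1.18 ± 0.14, adjusted p = 1.77e-04). Slc7a11 and Nfe2l2 kept their calls whichever library was left out. Txnrd1 stood at 68.1 and 78.5 CPM without LPS and 124 and 130.4 CPM with LPS, and rose 1.78-fold (0.83 ± 0.15, adjusted p = 0.00427). Without BV2_EPZ replicate 1 the Txnrd1 call was lost (0.75, adjusted p = 0.0794).

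For the other genes the values were smaller. Srxn1 stood at 82.1 and 65.3 CPM without LPS and 106 and 89.6 CPM with LPS (0.44 ± 0.16, adjusted p = 0.188), and was called without BV2_EPZ_LPS replicate 2 (0.57, adjusted p = 0.00933). Gclm stood at 28.6 and 26.0 CPM without LPS and 30.1 and 37.7 CPM with LPS (0.35 ± 0.20, adjusted p = 0.503). Hmox1 was at 57.9 and 57.4 CPM without LPS and 63.3 and 70.0 CPM with LPS (0.25 ± 0.15, adjusted p = 0.564). These 3 differences did not pass the test with all libraries, although no LPS library fell among the untreated ones. Gclc stood at 24.9 and 29.7 CPM without LPS and 26.5 and 24.2 CPM with LPS (-0.08 ± 0.20, adjusted p = 0.932). Mt1 stood at 149 and 150.3 CPM without LPS and 176 and 142 CPM with LPS (0.12 ± 0.14, adjusted p = 0.815). Mt2 stood at 12.4 and 12.2 CPM without LPS and 11.4 and 10.4 CPM with LPS (-0.15 ± 0.26, adjusted p = 0.886). The libraries of Gclc and Mt1 overlapped between the groups. Nqo1 had 1 read in all 4 BV2 libraries together and was not tested.

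The difference of the LPS responses was tested itself, as an interaction over all 10 libraries. The log2 fold change with LPS was higher in primary microglia for 6 of the 10 genes and lower for 0. Of all 11626 genes tested 12.2% differed, 8.65% with a higher and 3.54% with a lower value there. These directions are signed, so a deeper fall in primary microglia counts as lower. Srxn1 differed by 1.58 ± 0.20 (log2, adjusted p = 1.47e-06) and Txnrd1 by 1.50 ± 0.18 (adjusted p = 2.78e-07). Mt2 differed by 1.29 ± 0.31 (adjusted p = 0.00390), and Slc7a11 by 1.10 ± 0.25 (adjusted p = 0.00230). Gclm differed by 1.00 ± 0.24 (adjusted p = 0.00354) and Hmox1 by 0.84 ± 0.20 (adjusted p = 0.00348). The gene of the regulator was not among them: the responses of Nfe2l2 differed by 0.19 ± 0.19 (adjusted p = 0.644). Gclc (0.25 ± 0.26, adjusted p = 0.676) and Mt1 (0.11 ± 0.22, adjusted p = 0.902) did not pass either, and Nqo1 had too few BV2 reads for a fold. The 6 calls held under each of the 16 alternatives. Without PM_EPZ_LPS replicate 1 these differences ran from 0.74 (Hmox1) to 1.48 (Srxn1).

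Primary microglia and BV2 cells were next compared directly, on the libraries that the LPS comparisons also use. Markers of other cell types differed with this contrast. Of 12 astrocyte markers tested 11 were higher in primary microglia and 1, Aldoc, was lower, both without and with LPS. The 8 fibroblast markers summed to 122 to 363 CPM in primary libraries without LPS and 99.6 to 156 CPM with LPS. All were at 0 in BV2 libraries. With LPS in primary microglia 0 of the 8 rose and 0 fell (median log2 fold change -0.58). The 10 oligodendrocyte markers summed to 194 to 248 CPM in primary and 25.0 to 28.3 CPM in BV2 libraries, and the 7 neuronal markers to 77.4 to 90.2 CPM and at most 0.659 CPM. The 7 endothelial and mural markers summed to 22.1 to 38.4 CPM in primary and 87.1 to 128 CPM in BV2 libraries. Most of the BV2 sum came from Kdr. Its mean was 113 CPM in BV2_EPZ and 91.4 CPM in BV2_EPZ_LPS, against 3.53 CPM in PM_EPZ and 2.56 CPM in PM_EPZ_LPS. Of 3 such markers tested, 2 (Cdh5 and Pdgfrb) were higher in primary microglia and 1 (Kdr) was lower, under either treatment. The part of these markers in the differences was not tested. Without LPS, 7 of the 10 genes were higher in primary microglia and 1 was lower, where 74.1% of all 11626 genes were called, 41.5% as higher and 32.5% as lower. Primary libraries lay wholly above BV2 libraries for 8 genes and below for 1, beside 46.9% of all genes above and 84.1% separated in either direction. With LPS, 9 genes were higher and 1 was lower, where 73.8% of all genes were called, 43.1% as higher and 30.7% as lower. All 10 were then separated, 9 of them above, beside 80.1% and 46.4% of all genes. The median over all genes was 0.23 on the log2 scale without LPS and 0.29 with LPS, and over the 10 genes 1.07 and 2.12.

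Hmox1 was 5.24-fold higher in primary microglia without LPS (log2 difference 2.39 ± 0.15, adjusted p = 7.97e-14) and 9.39-fold higher with LPS (3.23 ± 0.15, adjusted p = 1.12e-16). Nqo1 had 34 reads in the primary libraries without LPS and 0 in the BV2 libraries, at least 8.88-fold higher against a floor of 3 counts over the group. With LPS it had 49 reads against 1, a ratio of 34.7 (95% counting interval 5.95 to 1399). Slc7a11 was 3.85-fold higher without LPS (1.94 ± 0.20, adjusted p = 1.31e-09) and 8.27-fold higher with LPS (3.05 ± 0.15, adjusted p = 2.01e-16). Txnrd1 was 2.54-fold higher without LPS (1.34 ± 0.13, adjusted p = 6.17e-10) and 7.17-fold higher with LPS (2.84 ± 0.13, adjusted p = 9.40e-17). For these 4 genes no BV2 library reached the range of the primary group given the same treatment.

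Nfe2l2 differed by 0.79 ± 0.14 without LPS (adjusted p = 1.22e-05) and 0.99 ± 0.13 with LPS (adjusted p = 1.78e-07). Srxn1 without LPS was at 62.7 ± 5.15 CPM in primary and 73.7 ± 11.9 CPM in BV2 cells, with overlapping libraries (-0.24 ± 0.15, adjusted p = 0.156). With LPS it was 2.54-fold higher in primary microglia (1.34 ± 0.14, adjusted p = 3.08e-09). Gclm and Gclc without LPS lay near the threshold, at 0.40 ± 0.17 (adjusted p = 0.0425) and 0.37 ± 0.18 (adjusted p = 0.0712). The Gclm call was lost with DESeq2 (adjusted p = 0.0567), with no filter on low counts (adjusted p = 0.0770), with unstranded counts (adjusted p = 0.0623) and when any 1 of 4 libraries was left out, PM_EPZ replicate 2 (adjusted p = 0.129), PM_EPZ replicate 3 (adjusted p = 0.0535), BV2_EPZ replicate 1 (adjusted p = 0.0885) or BV2_EPZ replicate 2 (adjusted p = 0.208). Gclc was called with RLE size factors (adjusted p = 0.0433), without PM_EPZ replicate 3 (adjusted p = 0.0348) and without PM_EPZ_LPS replicate 1 (adjusted p = 0.0304). With LPS both were higher in primary microglia, Gclm by 1.40 ± 0.16 (adjusted p = 1.27e-08) and Gclc by 0.62 ± 0.18 (adjusted p = 0.00351).

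The metallothionein genes differed in opposite directions. Mt2 was 4.66-fold higher in primary microglia without LPS (2.22 ± 0.21, adjusted p = 3.83e-10) and 11.4-fold higher with LPS (3.51 ± 0.21, adjusted p = 1.88e-14). Mt1 was the 1 gene of the 10 that was lower there, at -0.58 ± 0.16 without LPS (adjusted p = 0.00177) and -0.46 ± 0.15 with LPS (adjusted p = 0.00865). The Mt1 difference with LPS did not pass without BV2_EPZ_LPS replicate 1 (-0.31, adjusted p = 0.135). The ratio of Mt2 to Mt1 reads was 0.0811 to 0.0837 in BV2 libraries without LPS and 0.0648 to 0.0730 with LPS, below every primary library. Mt3 had 0 reads in all BV2 libraries.

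**Figure D3:**
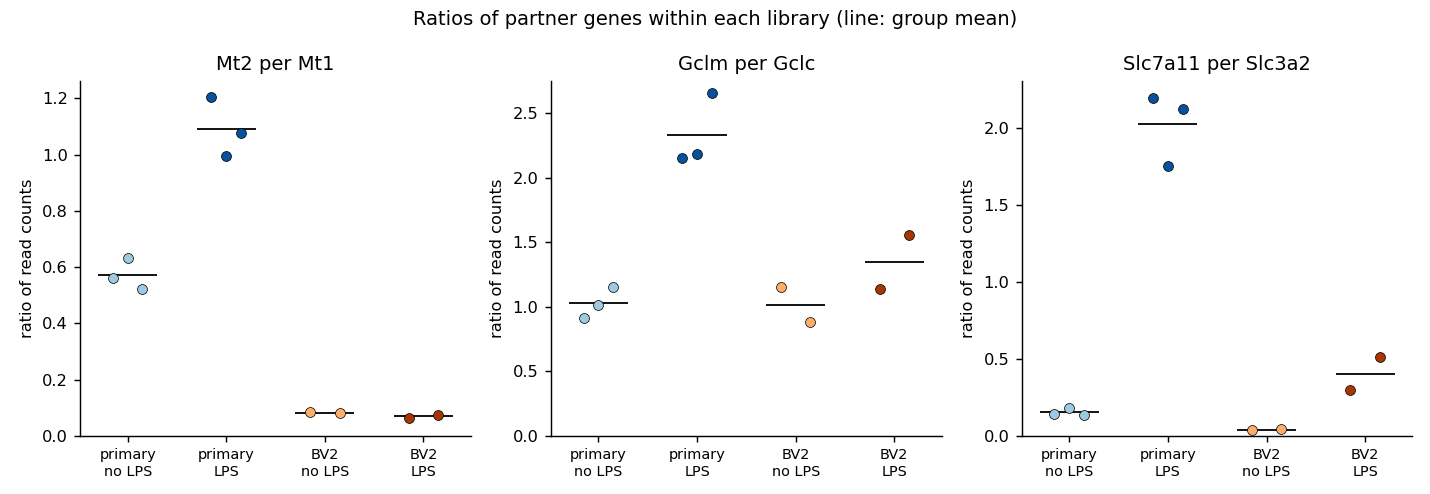
Ratio of read counts within each library for 3 pairs of partner genes, on linear axes from 0 with a line at the group mean. Counts were not scaled by transcript length. Mt2 per Mt1 separates primary libraries (0.521 and above) from BV2 libraries (0.0837 and below), and Slc7a11 per Slc3a2 is highest in primary libraries with LPS (1.76 to 2.20).

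Levels were also divided by the length of each gene's principal coding transcript, so that genes can be ordered within a group. In primary microglia without LPS, Hmox1 came first at 193 ± 23.1 CPM per kb, and its libraries overlapped those of Mt1 (183 ± 25.9). Mt2 followed (113 ± 27.6), then Nfe2l2 (59.4 ± 6.94) and Txnrd1 (56.0 ± 2.43), which overlapped each other. Srxn1, Gclc, Gclm, Slc7a11 and Nqo1 came next in that order, from 22.3 to 2.77 CPM per kb, each separated from its neighbour. With LPS, Hmox1 was first again at 399.7 ± 41.2 CPM per kb, and Txnrd1 was second (275 ± 6.42). Mt2 (243 ± 24.7) and Mt1 (209 ± 40.4) overlapped, and Nfe2l2 (149.8 ± 9.97) came next. Slc7a11 stood in the ninth place without LPS and in the sixth with LPS (117 ± 6.91), while Gclc and Nqo1 were last (11.4 ± 1.26 and 3.40 ± 0.602).

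In BV2 cells Mt1 was first in both groups, at 272 ± 2.09 CPM per kb without LPS and 289.8 ± 42.9 with LPS. The next gene was Hmox1 at 36.7 ± 0.226 CPM per kb without LPS and Nfe2l2 at 75.6 ± 6.54 with LPS, with no overlap. Without LPS the libraries of Srxn1 (26.2 ± 4.24) and Mt2 (24.1 ± 0.341) overlapped, and with LPS those of Txnrd1 (38.3 ± 1.31) and Srxn1 (34.9 ± 4.23). The place of Mt1 depends on the length used, since its principal transcript has 549 bases and the union of its exons 1246. Over the union Mt1 was still first in BV2 cells, at 120.0 CPM per kb without LPS and 128 with LPS, where Nfe2l2 followed at 75.6 and Srxn1 (34.9) came before Txnrd1 (31.2). In primary microglia without LPS it lay below Mt2 over the union (80.5 against 98.4). With LPS it was at 92.2, below Nfe2l2 (149.8) and Slc7a11 (109.6), which puts Slc7a11 in the fifth place in that group.

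**Figure D4:**
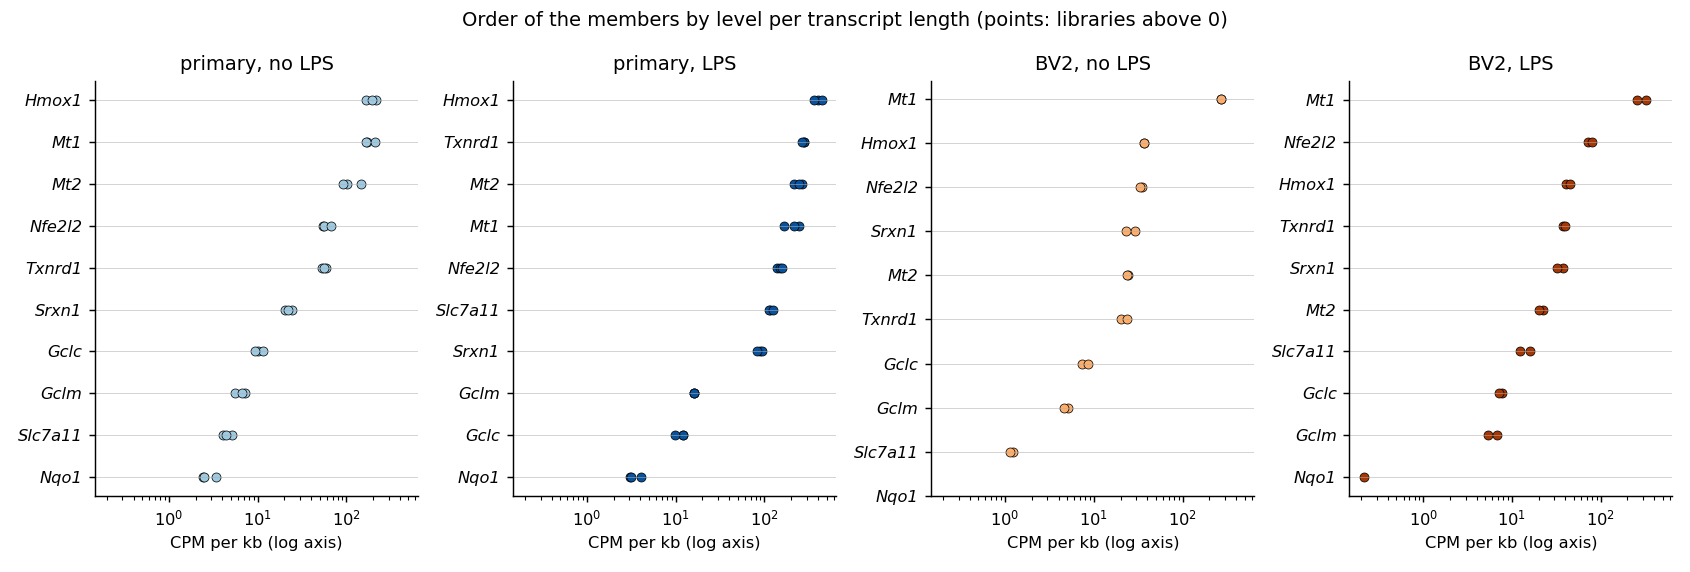
Level per kb of the principal coding transcript (log axis) for each of the 10 genes in each group, ordered by the group mean, with a point per library above 0. On this length Mt1 stands apart at the top in both BV2 groups (means of 272 and 289.8 CPM per kb), while Hmox1 comes first in both primary groups (193 and 399.7).

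The 9 lists of genes from the same and neighbouring pathways held 114 genes outside the 10. With LPS in primary microglia, 33 of the 99 tested rose and 19 fell (median 0.06), beside 21.4% and 17.8% of all genes. Of 14 regulators and partners of NRF2, 6 rose and 2 fell (median 0.38). Keap1, which restrains NRF2, rose from 27.6 ± 3.11 to 63.6 ± 7.93 CPM (1.19 ± 0.15, adjusted p = 3.38e-06). Bach1, which competes with NRF2 for its sites, fell from 105 ± 6.43 to 58.7 ± 1.39 CPM (-0.85 ± 0.12, adjusted p = 1.31e-05). Of the small MAF partners, Maff (1.79 ± 0.23, adjusted p = 4.69e-06) and Mafk (1.34 ± 0.29, adjusted p = 0.00128) rose, and Mafg did not pass (0.45 ± 0.19, adjusted p = 0.0660). Sqstm1, whose product draws KEAP1 into autophagy, rose from 444 ± 18.3 to 1211 ± 128 CPM (1.44 ± 0.11, adjusted p = 2.62e-09).

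Of 15 other glutathione genes, 4 rose and 1 fell (median 0.17). Slc3a2, the partner chain of the SLC7A11 protein, rose from 279 ± 23.1 to 537 ± 54.9 CPM (0.93 ± 0.11, adjusted p = 1.96e-06). The ratio of Slc7a11 to Slc3a2 reads, not scaled by transcript length, was 0.133 to 0.179 without LPS and 1.76 to 2.20 with LPS. Glutaredoxin (Glrx) rose from 8.49 ± 0.691 to 145 ± 14.6 CPM (4.07 ± 0.16, adjusted p = 1.11e-13). The exporter gene Abcc1 rose from 61.5 ± 4.43 to 330.1 ± 22.9 CPM (2.41 ± 0.12, adjusted p = 4.22e-12), and glutathione reductase (Gsr) by 1.20 ± 0.13. Glutathione synthetase (Gss) did not pass (0.22 ± 0.21, adjusted p = 0.460). Of 11 other thioredoxin and peroxiredoxin genes, 5 rose and 0 fell (median 0.17). The peroxiredoxin genes Prdx1 (2.09 ± 0.11, adjusted p = 1.04e-11) and Prdx5 (2.48 ± 0.12, adjusted p = 3.43e-12) rose, Prdx1 from 447 ± 38.2 to 1920.2 ± 133 CPM and Prdx5 from 154 ± 14.1 to 866 ± 100.3 CPM, and thioredoxin (Txn1) rose by 1.15 ± 0.12.

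The lists on supply and clearance were mixed. Of 10 NADPH genes, 1 rose and 4 fell (median -0.32). Pgd, a pentose phosphate enzyme, rose by 0.88 ± 0.11, and Idh1, cytosolic isocitrate dehydrogenase, fell from 22.9 ± 3.66 to 7.41 ± 5.54 CPM (-1.70 ± 0.41, adjusted p = 0.00835). Of 9 other heme and iron genes, 5 rose and 2 fell (median 0.53). Biliverdin reductase B (Blvrb) rose by 1.13 ± 0.16 and the ferritin heavy chain gene Fth1 by 0.86 ± 0.11, while the iron exporter gene Slc40a1 fell from 82.7 ± 10.6 to 24.0 ± 4.05 CPM (-1.79 ± 0.16, adjusted p = 1.80e-08). Of 11 detoxification genes, 2 rose and 3 fell (median -0.15). The rises were Esd (1.50 ± 0.12), an esterase, and Akr1a1 (0.55 ± 0.11), an aldehyde reductase. The falls (Trim16, Nqo2 and Cbr1) were lost under 8, 8 and 9 of 13 alternatives. Of 11 other metallothionein and zinc genes, 5 rose and 0 fell (median 0.43). The zinc importer gene Slc39a14 rose from 10.1 ± 1.47 to 44.1 ± 15.1 CPM (2.10 ± 0.25) and the zinc exporter gene Slc30a1 by 0.79 ± 0.21 (adjusted p = 0.00528), while Mtf1, the zinc-sensing factor, did not pass (0.16 ± 0.21, adjusted p = 0.577).

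Slc7a11 is also known as a target of the amino acid stress factor ATF4, and metallothioneins as targets of the glucocorticoid receptor, so both pathways were counted. Whether either factor acted on these genes was not tested. Of 12 ATF4-linked genes, 3 rose and 3 fell (median -0.25). Atf3, a stress-induced factor, rose from 59.5 ± 3.16 to 274 ± 4.71 CPM (2.19 ± 0.12), and the pseudokinase gene Trib3 fell from 13.3 ± 1.22 to 5.67 ± 1.61 CPM (-1.20 ± 0.27, adjusted p = 0.00130). Of 8 genes of the glucocorticoid list, 2 rose and 4 fell (median -0.35). The receptor gene Nr3c1 rose from 82.8 ± 3.77 to 238 ± 18.1 CPM (1.51 ± 0.12). Tsc22d3, which encodes GILZ, fell from 51.0 ± 1.51 to 6.45 ± 2.56 CPM (-2.94 ± 0.22, adjusted p = 1.77e-09), as did the clock gene Per1 (-2.39 ± 0.33, adjusted p = 1.04e-05).

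**Figure D5:**
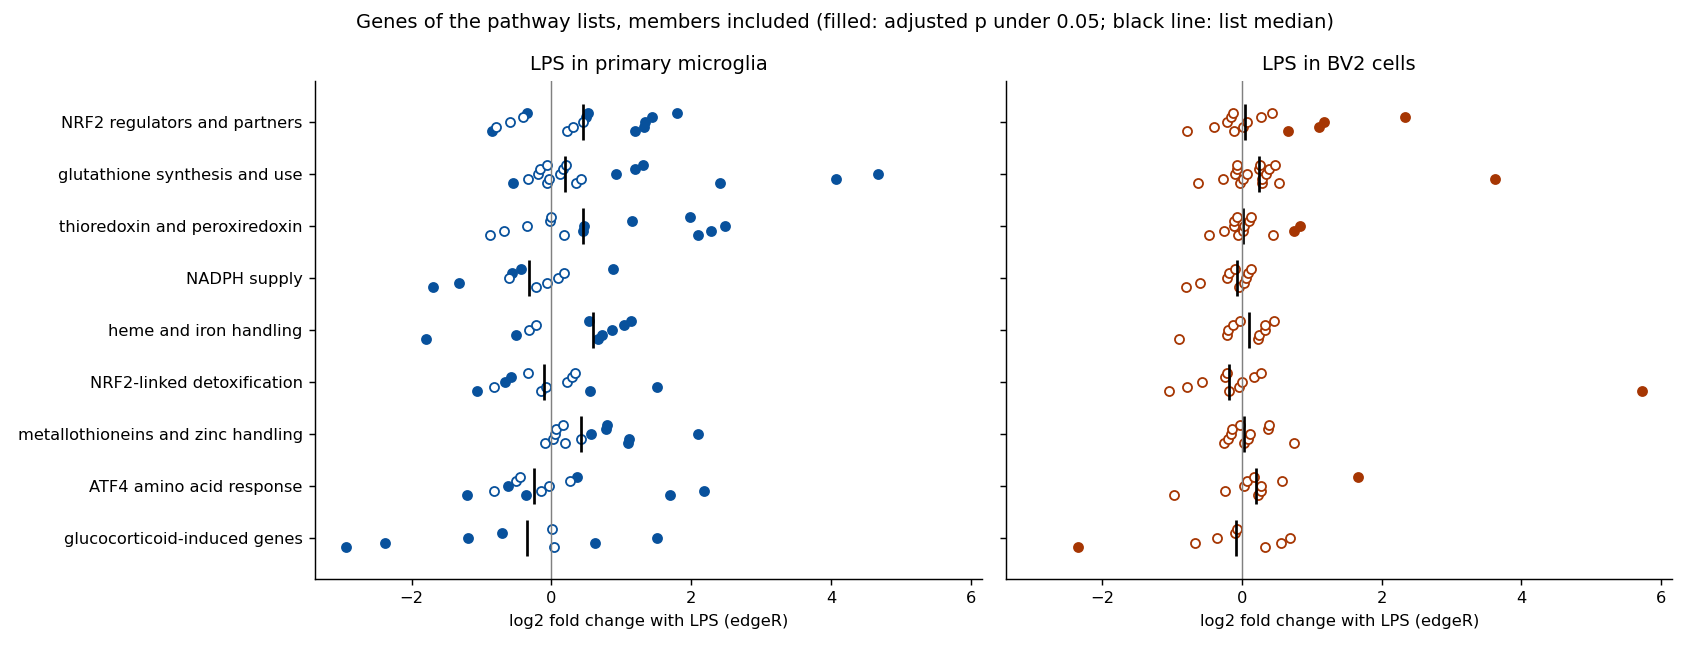
Log2 fold change with LPS (edgeR) of every tested gene in the 9 lists, the 10 genes included, in primary microglia and BV2 cells; filled points have an adjusted p under 0.05 and black lines are list medians. In primary microglia filled points lie on both sides of 0, while in BV2 cells few points are filled, with Slc7a11 at 3.62.

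In BV2 cells 6 of the 94 tested genes of these lists rose and 1 fell (median 0.01), beside 3.69% and 1.51% of all genes. Maff rose from 4.60 ± 1.85 to 23.0 ± 0.677 CPM (2.33 ± 0.29, adjusted p = 2.86e-04), Sqstm1 by 1.10 ± 0.13 (adjusted p = 2.21e-04) and Atf3 by 1.66 ± 0.20 (adjusted p = 1.70e-04). Gdf15, a stress cytokine, had 1 read over both libraries without LPS and stood at 10.4 ± 1.93 CPM with LPS. Prdx5 rose by 0.75 ± 0.13 (adjusted p = 0.00473), a call lost without BV2_EPZ replicate 2 (adjusted p = 0.0683). Tsc22d3 fell from 8.12 ± 2.16 to 1.59 ± 1.06 CPM (-2.34 ± 0.48, adjusted p = 0.0122), a call that DESeq2 and the fit without BV2_EPZ replicate 1 did not give. Keap1 (-0.13 ± 0.19), Bach1 (-0.40 ± 0.20), Prdx1 (0.12 ± 0.12), Txn1 (0.10 ± 0.17) and Mtf1 (0.75 ± 0.28) did not pass, with adjusted p = 0.215 for Mtf1 and 0.876 for Txn1 as the lowest and highest.

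For the lists the log2 fold change with LPS was higher in primary microglia for 18 of 104 genes and lower for 2, beside 8.65% and 3.54% of all genes. Among the higher ones were Glrx (3.59 ± 0.27, adjusted p = 8.80e-11), Abcc1 (2.07 ± 0.20, adjusted p = 1.25e-08), Prdx1 (2.01 ± 0.17, adjusted p = 9.89e-10) and Prdx5 (1.78 ± 0.19, adjusted p = 4.44e-08). Keap1 (1.37 ± 0.25, adjusted p = 2.29e-04), Txn1 (1.10 ± 0.21, adjusted p = 3.15e-04), Esd (1.28 ± 0.20, adjusted p = 2.19e-05) and Nr3c1 (1.63 ± 0.23, adjusted p = 5.54e-06) were also among them. These 8 held under all 16 alternatives run. The difference of Slc3a2 (0.69 ± 0.20, adjusted p = 0.0194) was lost under 6 of 16 alternatives. Gdf15 and Per1 were the 2 with a lower log2 fold change in primary microglia, where Per1 fell as given above. Bach1 (-0.40 ± 0.23, adjusted p = 0.319) and Maff (-0.49 ± 0.41, adjusted p = 0.563) were not called.

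Between the cell types without LPS, 41 of 104 of the listed genes were higher in primary microglia and 42 lower, beside 41.5% and 32.5% of all genes. With LPS 50 were higher and 30 lower, beside 43.1% and 30.7% of all genes. Keap1 did not pass without LPS (-0.21 ± 0.18, adjusted p = 0.309) and was higher in primary microglia with LPS (1.16 ± 0.17, adjusted p = 1.13e-06). Bach1 was higher in both comparisons (1.83 ± 0.16, adjusted p = 5.64e-11, then 1.43 ± 0.16, adjusted p = 1.27e-08). Prdx1 was lower in primary microglia without LPS, at 447 ± 38.2 against 828 ± 9.30 CPM (-0.89 ± 0.12, adjusted p = 2.46e-07), and higher with LPS (1.13 ± 0.12, adjusted p = 6.48e-09). Slc3a2, the partner of Slc7a11, did not pass without LPS (-0.02 ± 0.14, adjusted p = 0.918), where Slc7a11 itself was higher in primary microglia.

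Across the 10 libraries, the genes whose log2 level was most like that of each of the 10 were ranked by Pearson correlation among 11625 others. The libraries fall into 4 groups and share the contrast between cell types, so the values only describe the pattern. Slc7a11 was most like Pde4b (0.996), Marcksl1 (0.994) and Slc31a2 (0.993), and Nfe2l2 was number 10 in its order (0.989). Nfe2l2 was most like Slc31a2 (0.996), Ccrl2 (0.991) and Pde4b (0.990), with Slc7a11 number 6. For Gclm these were Trim30d (0.993), Esd (0.990) and Gbp6 (0.988), with Txnrd1 number 56 (0.977), and for Txnrd1 Gm21188 (0.995), Kremen1 (0.994) and Zufsp (0.994). Srxn1 was most like Tor3a (0.993), Usp18 (0.993) and Slc23a2 (0.991), and Gclc like Mast2 (0.962), Wdr33 (0.956) and Trpm4 (0.953). Hmox1 was most like Met, Cxcl16 and Sh3bp4 (each 0.996), with Mt2 number 25 (0.991), and Nqo1 like Ube2r2 (0.996), Erc1 (0.995) and Dhrs1 (0.994). Mt2 was most like Whsc1l1 (0.996), Met (0.995) and Gnb4 (0.995). Mt1 was most like Rnaseh2b (0.969), Xab2 (0.963) and Ift22 (0.949), and its correlation with Mt2 was -0.66.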

How the data were processed

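Per the labels' protocols, ribosomal RNA was removed, a strand-marking kit was used and both ends were read on a HiSeq2500. CASAVA 1.8.2, Trimmomatic 0.33, STAR 2.5.1, the mm10 build and DESeq2 (no version) are named in the submitters' processing notes, while for the gene annotation a name was not given in the sources used for this text. The authors deposited raw read counts for each gene symbol in the STAR layout (unstranded and 1 column per strand), and the reverse-strand column was used because it held nearly all stranded gene reads (the opposite one had 0.682% to 2.21%). Rows without a gene name took 70.4% to 79.5% of reads and stayed out of library sizes and tests; multimapping reads were 7.64% to 11.8%.

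The test was that of edgeR 4.0.16 under R 4.3.3 (quasi-likelihood F test, robust, TMM, filterByExpr with minimum count 10 and minimum total 15, Benjamini-Hochberg over all tested genes, called at an adjusted p under 0.05). All p-values and ± SE of log2 values come from it unless another tool is named, and it was tested on simulated data. The LPS responses were fitted on 6 primary and 4 BV2 libraries separately. The difference of responses and the comparisons of the cell types used all 10 libraries in 4 groups. Levels are mean ± SD. Same-numbered libraries did not deviate together in every primary pair (correlations 0.18, -0.08 and 0.19), and the numbers were not taken to pair samples. No replicate pair matched within sampling noise (chi-square per degree of freedom of at least 1.57). The value was 68.8 and 74.4 for PM_EPZ_LPS replicate 1 against replicates 2 and 3. It was 2.80 between replicates 2 and 3 and at most 9.74 in any other pair. Promoter letters came from RefSeq (GRCm38.p6), gene positions and transcript lengths from GENCODE (GRCm38).

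The genes, the pathway and marker lists and the tests were chosen with earlier results of these data known. Outside the 10, the text names Keap1, Bach1, the small MAF genes, Slc3a2, Gss, Gsr, Txn1, Prdx1, Mtf1 and Slc30a1, genes taken from the 2 called genes with the largest rise and the 2 with the largest fall per list and comparison (not all of which are printed), and the 3 genes most like each of the 10. Genes outside this rule (Mt3, Mt4, Tnf, Trim16, Nqo2, Cbr1 and the further markers) were named after their values were seen. Alternatives were DESeq2 1.42.0, RLE factors, no filter, unstranded counts, leaving out Rn45s or each library, all libraries in 1 fit, a replicate block and, chosen after seeing the data, the union of exons as length.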

Additional observations from a re-analysis of the deposited data

Results flagged for a closer look

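The LPS response differed between primary microglia and BV2 cells, by the interaction test over all 10 libraries, for 6 of the 10 genes. Over all 11626 genes tested 12.2% differed, 8.65% with a higher and 3.54% with a lower log2 fold change in primary microglia. The log2 difference, primary minus BV2, was 1.10 ± 0.25 for Slc7a11, 0.84 ± 0.20 for Hmox1, 1.00 ± 0.24 for Gclm, 1.58 ± 0.20 for Srxn1, 1.50 ± 0.18 for Txnrd1 and 1.29 ± 0.31 for Mt2. In each of these genes all 3 primary LPS libraries lay above all 3 untreated ones, as they did for 26.6% of all genes. In BV2 cells the LPS libraries also lay above the untreated ones in each of them but Mt2, beside 17.1% of all genes. Such separation within a cell type does not test the difference of responses.

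Reads on the strand opposite to Slc7a11, which the comparisons above leave out, made up a mean of 15.2% of its stranded reads in primary microglia without LPS and 2.18% with LPS. In BV2 libraries 2 such reads were found in all.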

How the results depend on the processing

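Of the values for single genes under the alternatives, 673 kept direction and side of the threshold, 9 lost a call, 5 gained one and 6 changed sign. The sign changes were all of values that were not called. With LPS in BV2 cells, Gclc was -0.08 and ran from -0.18 to 0.0734 over the fits that leave out 1 library, above 0 without BV2_EPZ replicate 2 (0.0734) or BV2_EPZ_LPS replicate 2 (0.0033). Mt1 there was 0.12 and ran from -0.0199, without BV2_EPZ_LPS replicate 1, to 0.28. The difference of responses of Mt1 was 0.11 and ran from -0.0635 to 0.28, below 0 without PM_EPZ replicate 3, PM_EPZ_LPS replicate 2 or BV2_EPZ_LPS replicate 2. With LPS, the number of genes lower in primary microglia was 1 and ran from 0 to 1 over these fits (0 without BV2_EPZ_LPS replicate 1). The cause was not tested. Over all alternatives the genes called numbered 7 to 8 with LPS in primary microglia, 2 to 4 in BV2 cells, 6 for the difference, 7 to 9 between cell types without LPS and 9 to 10 with LPS. With the replicate block they numbered 7, 3, 6, 8 and 10, as without it. Of the other pathway genes, 19 fell with LPS in primary microglia, but 10 with DESeq2, and 11 without any 1 of PM_EPZ replicate 1, PM_EPZ replicate 2 or PM_EPZ_LPS replicate 3. In BV2 cells 11 in place of 6 rose without BV2_EPZ_LPS replicate 2. For the difference 10 in place of 18 had a higher log2 fold change in primary microglia without BV2_EPZ replicate 1. Leaving Rn45s out of library sizes raised levels in CPM about 1.5 times in all groups. Nqo1, with 1 read in all BV2 libraries, could not be followed there.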
